A study of Mus musculus with 8 samples.

Results

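The 42 genes described here are antiviral genes of the type I interferon (IFN) response, taken by symbol from a fixed list, and all 42 were found among the 20057 genes of the table. The list covers the IFIT, OAS, Mx and IFITM families, viperin and its neighbor, antiviral TRIM proteins, nuclear and nucleic-acid-binding proteins, regulators, and membrane or secreted proteins. All of them had a larger group mean above 10 normalized reads and were tested. The question was how far these genes differed in endothelial cells of tumors treated with an antibody that stimulates CD40.

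Tumors were grown under the skin of 8-week-old male C57BL/6 mice from 250000 implanted cells of B16-F10, a melanoma line of the same strain. Agonistic CD40 mAb (clone FGK4.5, 30 µg) or rat IgG2a isotype control (clone 2A3, 30 µg) was injected beside the tumor on days 13 and 16, and tumors were taken 1 day after the second dose. Live CD45-CD31+ cells, about 100000 per tumor, were sorted as tumor endothelial cells, and 10 ng of RNA per tumor was sequenced. Each library is named after its mouse. Agonistic CD40 mAb replicates 1 to 4 are 5N, 6L, 6R and 10N, isotype control replicates 1 to 4 are 5L, 7N, 8N and 9L, and values of single libraries are listed in these orders. The labels name no transgene or mutation in either group, and no group without any antibody was analysed here.

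IFNα and IFNβ bind the receptor of IFNAR1 and IFNAR2 and act through a complex with STAT2 and IRF9, which binds the interferon-stimulated response element (ISRE) in promoters. IFNγ uses another receptor and acts in part through the gamma-activated site (GAS) and through IRF1, a factor that can bind ISRE-like sequence, so that many antiviral genes respond to both kinds of IFN. Endothelial cells respond to both kinds, and the proteins made block virus entry, degrade or sequester viral RNA, deplete nucleotides and mark capsids for destruction.

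Values are normalized reads, which are gene reads divided by a size factor per library. Reads on genes ranged from 2971689 in 5L to 64938728 in 5N, so 1 read was worth 0.118 normalized reads in 5N and 2.44 in 5L, and these limits cover counting error only. All 10 endothelial markers were well expressed, with a summed level of 34780 to 58170 normalized reads, 5L being lowest and 6L highest. Reads of other cell types were also present. The 6 melanoma markers (Pmel, Tyr and Tyrp1 among them) summed to 89690 in 5L, to between 37050 and 46340 in the other 3 isotype libraries and to between 34550 and 58340 with agonistic CD40 mAb. The 6 fibroblast markers summed to between 50690 in 5L and 150700 in 10N, in every library above the sum of the endothelial markers. The 6 mural markers summed to between 11160 in 5L and 35550 in 7N. Ptprc, which encodes CD45, lay at 5.77, 1.51, 21.1 and 11.6 with agonistic CD40 mAb and at 0, 2.38, 2.72 and 4.98 with isotype control. Among the leukocyte markers Lcp1 was highest, at 1083 to 1473 (ratio 1.07), and Laptm5 lay at 29.3 to 83.9 (ratio 0.96). The T and NK cell markers summed to between 0 and 11.4. Cd8a had 3, 3, 8 and 0 reads against 0 in all controls, and Cd4 had 5, 0, 1 and 2 against 0, 1, 2 and 14. Of the dendritic cell markers, Zbtb46 lay at 166 to 270 and Clec9a at 44.0 to 128. Cd3d and Siglech were at 0 in all 8 libraries. The 8 macrophage markers had summed levels of 306 to 511 in the agonistic CD40 mAb libraries against 197 to 456 in the isotype libraries, and 6 of the 8 had a log2 fold change above 0, with a median of 0.57. Of these Mrc1 had a ratio of 1.75 (limma p = 0.0189, exact permutation p = 0.0286) and groups that did not overlap. Itgam and Lyz2 had ratios of 2.03 and 1.54, and Csf1r and Cd68 of 0.93 and 0.98. The part of RNA from macrophages, fibroblasts and the other cell types in the differences of the antiviral genes was not tested. Library 5L was at once the shallowest library, the highest in melanoma markers and the lowest in endothelial markers, and counts of genes past the threshold used below are also given without it.

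The ISRE and GAS matches near the start sites of the antiviral genes are shown first, since these elements are where IFN-activated factors bind. Promoters of 300 bases (250 before and 50 from the start site) were found for 35 of the 42 genes in RefSeq sequence of GRCm38.p6, the assembly also called mm10. Oas1b, Oas2, Mx1, Mx2, Ifi204, Rtp4 and Ifi27 were not matched. The ISRE core was searched as GAAANNGAAA on both strands, so that TTTCNNTTTC counts as a match, and GAS as the palindrome TTCNNNGAA. A gene with several promoters counted once if any of them held a match. The ISRE core was present in 15 of the 35 genes (42.9%), in 3.77% of the 9866 tested genes with a promoter, and in 9 of 18 genes (50.0%) of a comparison list led by IFNγ. GAS was present in 10 of the 35 (28.6%), in 8.41% of the tested genes and in 38.9% of the IFNγ-led genes. In Ifitm3, Bst2 and Shisa5 the GAS match overlapped an ISRE match. The matched stretches of genes that carry the results or bound their range read as follows, 5′ to 3′ on the gene's strand, with the match in capitals; stretches past the start site are kept to 30 bases.
Ifit1 (chr19:34640760-34640838, plus strand): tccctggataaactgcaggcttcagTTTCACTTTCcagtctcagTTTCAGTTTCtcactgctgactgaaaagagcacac
Ifit3 (chr19:34583348-34583441, plus strand): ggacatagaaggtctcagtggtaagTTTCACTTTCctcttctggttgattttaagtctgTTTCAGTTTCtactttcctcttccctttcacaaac
Oas1a (chr5:120907526-120907570, minus strand): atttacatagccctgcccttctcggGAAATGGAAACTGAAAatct
Oas1g (chr5:120887614-120887656, minus strand): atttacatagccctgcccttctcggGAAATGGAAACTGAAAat
Rsad2 (chr12:26456538-26456597, minus strand): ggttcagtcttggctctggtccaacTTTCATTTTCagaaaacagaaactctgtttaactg
Ifitm3 (chr7:141010715-141010743, minus strand): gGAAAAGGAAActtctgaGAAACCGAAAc
Trim21 (chr7:102565447-102565476, minus strand): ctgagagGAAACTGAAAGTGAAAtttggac
Ddx60 (chr8:61928009-61928086, plus strand): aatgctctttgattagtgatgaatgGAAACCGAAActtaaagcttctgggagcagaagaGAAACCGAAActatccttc
Bst2 (chr8:71537562-71537627, minus strand): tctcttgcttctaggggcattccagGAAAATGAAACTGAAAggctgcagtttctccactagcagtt

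Ifit1 and Ifit3 carried 2 separate copies on the minus strand of the gene, Ddx60 carried the identical 10 letters at both of its matches, and Oas1a and Oas1g shared the same run of 2 overlapping matches just before the start site. In Oas1a, Oas1g, Trim21 and Bst2 the 2 matches overlap, so they are a single run of 3 GAAA blocks. Among the 7 genes past the threshold used below, 6 had a promoter, of which 2 (Oas1g and Trim21) held the ISRE core and 0 held GAS; among the other 35 genes, 29 had a promoter, of which 13 held the ISRE core and 10 held GAS. A match in this window is a description of letters, and the lack of one, as in Cmpk2, Irf7, Ifi44 and Sp110, says only that the letters are not in this window. The GAS matches of the 2 genes whose groups did not overlap and which had one were as follows, with the capitals marking GAS.
Ifit2 (chr19:34550444-34550503, plus strand): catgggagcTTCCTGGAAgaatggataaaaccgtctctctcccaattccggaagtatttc
Samhd1 (chr2:157135287-157135346, minus strand): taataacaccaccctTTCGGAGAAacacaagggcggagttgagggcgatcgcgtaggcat

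Differences in the antiviral genes were small, and most did not pass the test. The study's threshold was used, under which a gene counts when its group means differ at least 1.5-fold and its unadjusted p is 0.05 or lower. The p here comes from limma, a linear model fitted across all tested genes. By this rule 7 of the 42 were higher and 0 were lower: Oas1g, Oas2, Cmpk2, Trim21, Sp110, Irf7 and Ifi44. Over the 12969 genes tested, 1.28% were higher and 0.239% lower by the same rule, and without 5L these were 1.24% and 0.945%. Without the limit on the ratio, 12 of the 42 were higher, with Ifit2, Ifit3, Samhd1, Nmi and Lgals3bp added, against 1.67% of all genes, and 0 were lower, against 0.339%. With limma's p adjusted by Benjamini and Hochberg's method over the 12969 genes, 0 of the 42 had an adjusted p under 0.05 (12 at an unadjusted p of at most 0.05, and 8 without 5L), against 0.0154% of all genes, which is 2 genes, and against 19 genes without 5L and 17 with library quality weights. For the 42 the count was 0 as well with edgeR and with DESeq2 on the recovered reads, where 3 and 64 of all genes had an adjusted p under 0.05. The adjusted p was 0.599 for Oas2, 0.657 for Ifit2, 0.817 for Samhd1 and 1 for the other 39. In 6 genes (Ifit2, Oas2, Cmpk2, Trim21, Samhd1 and Nmi) every treated library was above every control library, as for 1.09% of all genes. Without 1 library this count was 6 to 14, with 14 without 5N (2.31% of all genes), 10 without 7N (2.30%) and 6 without 5L (1.99%). The opposite order held in 0 of the 42, against 0.486% of all genes. An exact permutation test over the 70 ways of assigning the libraries, two-sided like all tests here, gave the 6 genes its smallest possible p, 0.0286.

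The log2 fold change was above 0 for 42 of the 42 genes, against 51.3% of all genes tested, although for Ifitm1 the ratio of means was 0.950 and the sign turned with quantile normalization, edgeR and DESeq2. With library quality weights, which let limma give less weight to libraries that fit poorly, 32 of the 42 were above 0. The median log2 fold change was 0.43, and 0.22 with these weights, against 0.005 over all genes without weights. The largest value was 1.12 (Oas3), which fell to 0.53 without 5L, where Cmpk2 was largest at 1.01. Without 5L the median was 0.17, 33 of the 42 were above 0 and 4 were past the threshold (Oas1g, Oas2, Cmpk2 and Trim21). Without 6L or without 6R, 4 were past the threshold as well, against 0.957% and 1.12% of all genes. For 33 of the 42, leaving out 5L gave the lowest log2 fold change of the 8 fits without 1 library. In bulk RNA of sorted cells, less RNA of a gene per cell and fewer cells that express it cannot be told apart. The libraries come from separate tumors, so the spread includes differences between mice. The study's methods name a correction for harvest day, but the labels give no harvest day per library. Any effect of harvest day therefore cannot be told apart from the differences given here.

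**Figure D1:**
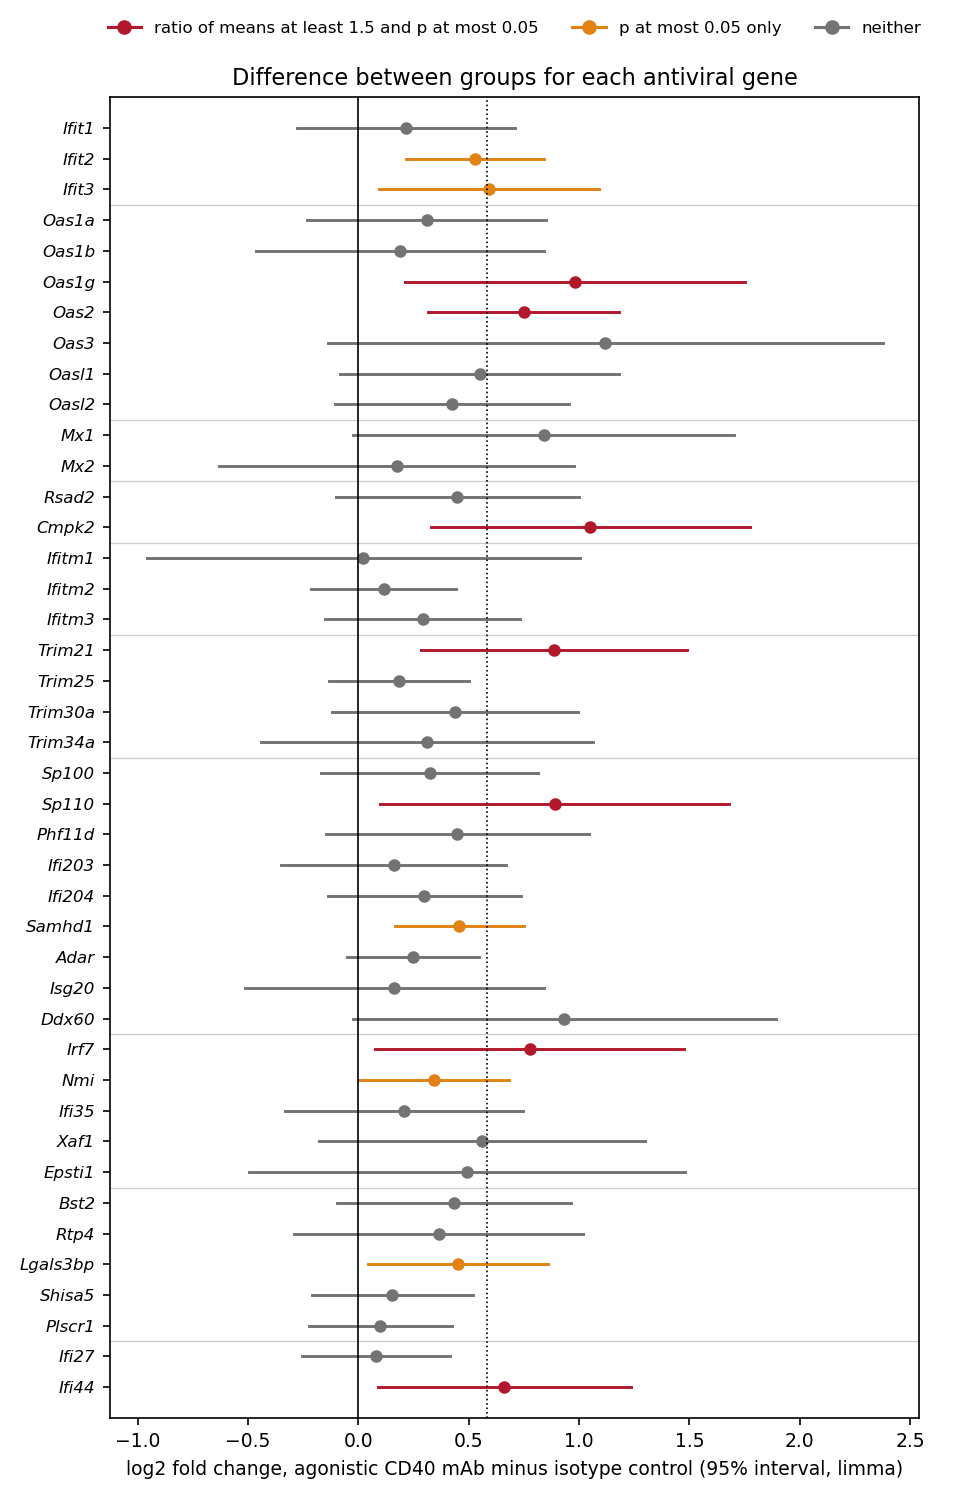
Log2 fold change of each of the 42 antiviral genes (x axis, log2(normalized reads + 1), agonistic CD40 mAb minus isotype control) with its 95% interval from limma, ordered by role. Red points are the 7 genes past both limits, orange points the 5 genes at p of at most 0.05 only, gray points the other 30; the dotted line marks a fold of 1.5, and every point lies above 0.

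Among the IFIT proteins, which bind viral RNA and limit its translation, Ifit2 and Ifit3 were higher at p of at most 0.05 and Ifit1 was not. Ifit2 stood at 383, 505, 427 and 476 normalized reads with agonistic CD40 mAb and at 342, 259, 342 and 298 with isotype control. The groups did not overlap, and 7N was the lowest library, not 5L. Ifit2 reached 448 ± 53.9 (SD, n = 4) under agonistic CD40 mAb against 310.3 ± 39.8 (SD, n = 4) under isotype control, a ratio of 1.44 and a log2 fold change of 0.53 (standard error 0.14, limma p = 0.00359, exact permutation p = 0.0286). Its ratio missed the limit of 1.5 by little and was 1.49 without 5L. Ifit2 lies on chromosome 19 from 34550694 to 34576419, next to Ifit3 and Ifit1 on the same strand.

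Ifit3 was measured at 293, 328, 379.6 and 344 and at 134, 295, 267 and 229 normalized reads. The groups touched, since 7N lay just above the lowest treated library, and 5L was far below the rest. The ratio was 1.45, with a log2 fold change of 0.59 (standard error 0.23, limma p = 0.0245, exact permutation p = 0.0571); without 6R limma's p was 0.0658, and without 5L the log2 fold change was 0.35 with a ratio of 1.28. Of the 50-base windows of Ifit3 transcripts, 51.2% also occur in another gene, Ifit3b, so reads may have been split between them. Ifit1 had a ratio of 1.17 (limma p = 0.352, exact permutation p = 0.343), and its log2 fold change was 0.22 (95% interval -0.28 to 0.71).

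The OAS genes encode the enzymes that make 2′-5′ oligoadenylates, which activate RNase L to cut RNA, together with the OAS-like proteins. Of the 7, 2 were past the threshold. Oas2 stood at 234, 222, 179 and 171 normalized reads with agonistic CD40 mAb and at 97.8, 138, 98.0 and 149 with isotype control. Every treated library was above every control, and the highest was 5N, which was the lowest treated library for 30 of the 42 genes. Oas2 reached 202 ± 31.2 (SD, n = 4) under agonistic CD40 mAb against 121 ± 26.7 (SD, n = 4) under isotype control, a ratio of 1.67 and a log2 fold change of 0.75 (standard error 0.20, limma p = 0.00295, exact permutation p = 0.0286). It had the lowest p of the 42, shared no 50-base window with another gene, and was past the threshold in each of the 8 fits that left out 1 library. It lies on chromosome 5 from 120730333 to 120749853.

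Oas1g lay at 25.2, 46.0, 53.5 and 34.8 and at 19.6, 14.3, 15.0 and 30.6 normalized reads. Here 9L overlapped the treated group and 5N was the lowest treated library. Means were 39.9 ± 12.4 (SD, n = 4) under agonistic CD40 mAb against 19.8 ± 7.52 (SD, n = 4) under isotype control, with a ratio of 2.01, the largest of the 42, and a log2 fold change of 0.98 (standard error 0.35, limma p = 0.0172, exact permutation p = 0.0571). Without 6R its limma p was 0.0614 at a ratio of 1.78. Oas1g lies on chromosome 5 from 120876142 to 120887613, and 45.7% of its windows also occur in Oas1a or Oas1b, while 57.6% of those of Oas1a occur in Oas1g or Oas1b. Oas1a itself, on chromosome 5 from 120896256 to 120907521, had a ratio of 1.23 (limma p = 0.234, exact permutation p = 0.286), so the values of the pair are uncertain where the reads could not be told apart.

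Oasl2, an OAS-like protein and the most abundant of the group in normalized reads, stood at 539.9, 777, 577 and 678 and at 271, 588, 566 and 561. Apart from 5L the control libraries lay close together and within the treated range. The means were 643 ± 107 (SD, n = 4) under agonistic CD40 mAb against 496 ± 151 (SD, n = 4) under isotype control, a ratio of 1.30 with a log2 fold change of 0.42 (standard error 0.24, limma p = 0.106, exact permutation p = 0.229); without 5L the ratio was 1.13 and limma's p was 0.292. Oas3, the long form, was near the limit of detection in the shallow libraries, with 15.8, 24.5, 26.5 and 33.7 against 2.44, 14.3, 23.1 and 13.4 normalized reads, where 2.44 in 5L is a single read. Its log2 fold change was 1.12 with a standard error of 0.57 (limma p = 0.0754, exact permutation p = 0.0571), and without 5L it was 0.53. Oasl1 had a ratio of 1.44 (limma p = 0.082, exact permutation p = 0.0857). Oas1b, which is truncated in common laboratory strains and is annotated in GENCODE M21 as a polymorphic pseudogene, had a ratio of 1.08 (limma p = 0.539, exact permutation p = 0.686).

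The Mx proteins are dynamin-like GTPases that trap viral nucleocapsids, and C57BL/6 mice carry defective alleles of both genes. Transcripts of both were scarce, and neither gene passed the threshold. Mx1 stood at 17.7, 17.0, 25.9 and 33.1 normalized reads with agonistic CD40 mAb and at 7.33, 19.0, 12.2 and 12.6 with isotype control. The groups overlapped through 7N, and 10N was the highest library. Mx1 averaged 23.4 ± 7.62 (SD, n = 4) under agonistic CD40 mAb against 12.8 ± 4.80 (SD, n = 4) under isotype control, a ratio of 1.83 and a log2 fold change of 0.84 (standard error 0.39, limma p = 0.0551, exact permutation p = 0.0857). On the recovered reads its p was 0.0495 with edgeR and 0.0475 with DESeq2, which puts it past the threshold there, while without 5L the log2 fold change was 0.62. Mx2 lay at 32.3, 44.5, 32.5 and 59.2 and at 19.6, 30.9, 57.2 and 48.5 normalized reads, with the treated range inside that of the controls except for the highest library. Its means were 42.1 ± 12.8 (SD, n = 4) under agonistic CD40 mAb against 39.0 ± 17.0 (SD, n = 4) under isotype control, with a ratio of 1.08 and a log2 fold change of 0.17 (standard error 0.36, limma p = 0.644, exact permutation p = 0.771).

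Rsad2 encodes viperin, which makes a chain-terminating nucleotide, and Cmpk2 encodes a mitochondrial nucleotide kinase that supplies its substrate. The genes are neighbors on chromosome 12 and point away from each other, Cmpk2 from 26469204 to 26479837 and Rsad2 from 26442746 to 26456452. Cmpk2 stood at 132, 216, 153 and 181 normalized reads with agonistic CD40 mAb and at 73.3, 40.4, 125 and 112 with isotype control. The groups did not overlap, 6L was highest and 7N was by far the lowest. Cmpk2 averaged 170.4 ± 36.1 (SD, n = 4) under agonistic CD40 mAb against 87.7 ± 38.4 (SD, n = 4) under isotype control, a ratio of 1.94 and a log2 fold change of 1.05 (standard error 0.33, limma p = 0.00863, exact permutation p = 0.0286). It was past the threshold in each of the 8 fits without 1 library, and its ratio without both 5L and 7N was 1.44.

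Rsad2 lay at 371, 438, 347 and 333 and at 200.4, 395, 370.3 and 183 normalized reads. In the controls 5L and 9L were low and 7N and 8N were inside the treated range, so the order of the controls was not that of Cmpk2. Rsad2 averaged 372 ± 46.4 (SD, n = 4) under agonistic CD40 mAb against 287 ± 111 (SD, n = 4) under isotype control, a ratio of 1.30 and a log2 fold change of 0.45 (standard error 0.25, limma p = 0.1, exact permutation p = 0.257).

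None of the IFITM genes, whose products block fusion of enveloped viruses in endosomes, passed the threshold, although they include the most abundant transcripts of the 42. Ifitm3 stood at 2561, 3621, 3094 and 2833 normalized reads with agonistic CD40 mAb and at 1628, 2531, 2713 and 3247 with isotype control. The groups overlapped widely, with 9L the second highest library of all and 5L the lowest. Its means were 3027 ± 452 (SD, n = 4) under agonistic CD40 mAb against 2530 ± 674 (SD, n = 4) under isotype control, with a ratio of 1.20 and a log2 fold change of 0.29 (standard error 0.20, limma p = 0.175, exact permutation p = 0.314), 95% interval -0.15 to 0.73. Without 5L the ratio was 1.07. Ifitm2 had a ratio of 1.07 (limma p = 0.456, exact permutation p = 0.571), and 48.5% of its windows occur in other genes. Ifitm1 was scarce, had a ratio of 0.950, a log2 fold change of 0.02 (95% interval -0.96 to 1.00) and a log2 fold change of -0.38 without 5L.

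TRIM21 is a cytosolic antibody receptor and ubiquitin ligase that sends antibody-coated virus to the proteasome. Trim21 stood at 122, 155, 167 and 163 normalized reads with agonistic CD40 mAb and at 48.9, 69.0, 113 and 113 with isotype control. All treated libraries were above all controls, though 5N was close to 8N and 9L. Trim21 averaged 152 ± 20.4 (SD, n = 4) under agonistic CD40 mAb against 86.0 ± 32.4 (SD, n = 4) under isotype control, a ratio of 1.77 and a log2 fold change of 0.89 (standard error 0.27, limma p = 0.00816, exact permutation p = 0.0286). It was past the threshold in each of the 8 fits without 1 library, with a ratio of 1.54 without 5L and of 1.34 without 5L and 7N, where limma's p was 0.0506. The gene lies on chromosome 7 from 102557921 to 102565486, and its ISRE run, shown above, is just after the start site.

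Trim25, a ubiquitin ligase that activates the RNA sensor RIG-I and the most abundant of the 4 TRIM genes, lay at 1097, 1261, 1004 and 974 and at 738, 1006, 1054 and 1040 normalized reads. The groups overlapped and 5L stood alone below the rest. Its means were 1084 ± 129 (SD, n = 4) under agonistic CD40 mAb against 959.5 ± 149 (SD, n = 4) under isotype control, with a ratio of 1.13 and a log2 fold change of 0.18 (standard error 0.14, limma p = 0.231, exact permutation p = 0.343). Trim30a had a ratio of 1.28 (limma p = 0.111, exact permutation p = 0.114) and Trim34a, which shares 59.7% of its windows with other genes, a ratio of 1.11 (limma p = 0.381, exact permutation p = 0.629).

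**Figure D2:**
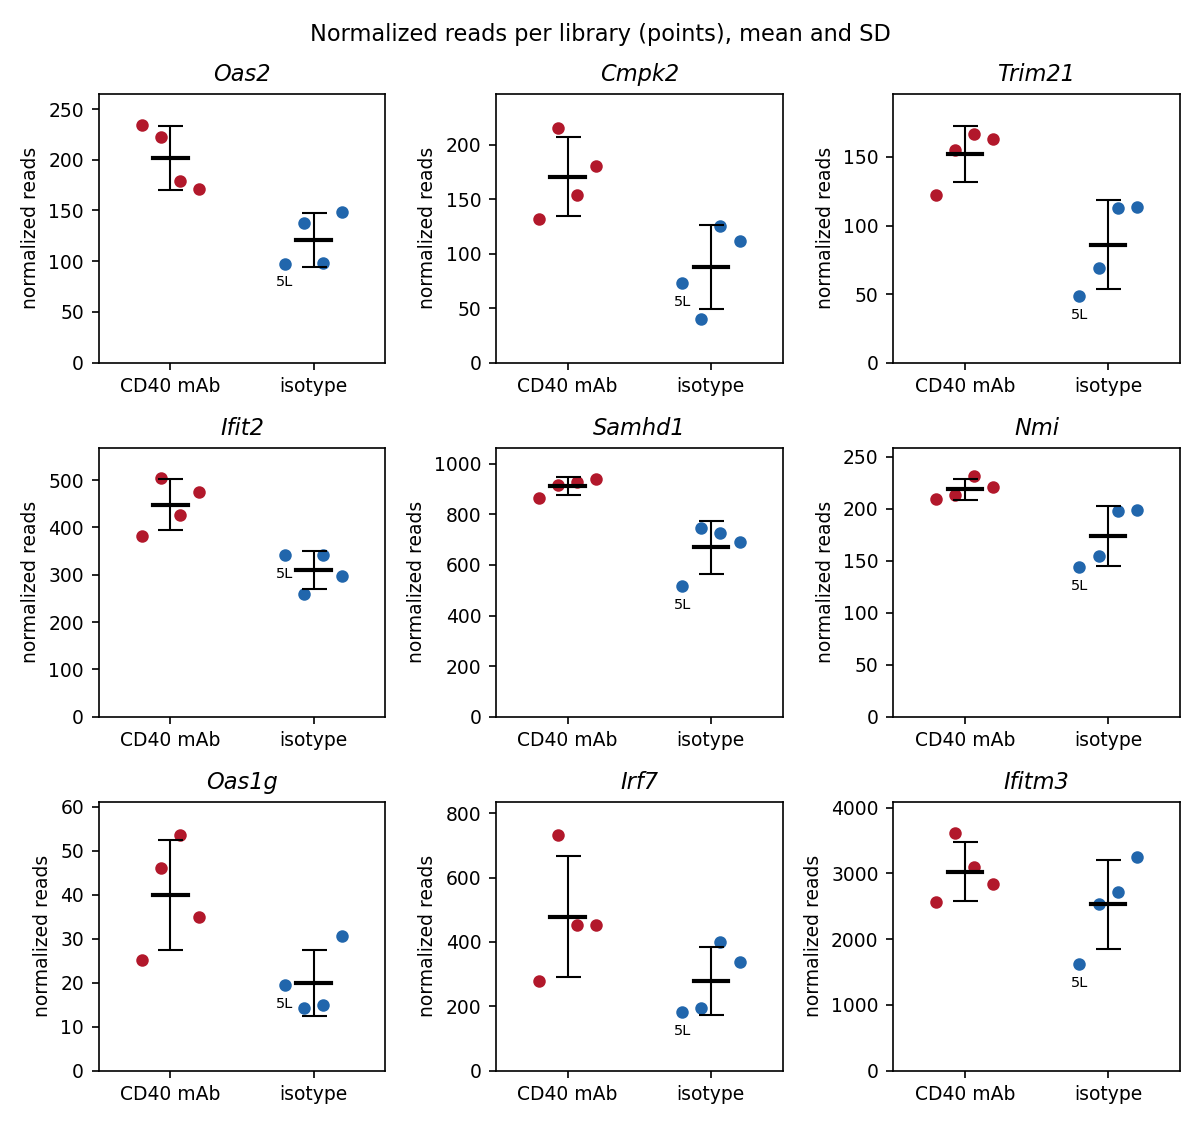
Normalized reads (y axis, from 0) of 9 antiviral genes in each library with agonistic CD40 mAb (red) and isotype control (blue), with the mean (thick bar) and SD (thin bars) over 4 libraries; 5L is marked. In the 6 genes of the upper and middle row the groups do not overlap, while in Oas1g, Irf7 and Ifitm3 they do.

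Of the 9 genes for nuclear body proteins, DNA-binding proteins and enzymes acting on nucleic acids, Sp110 was past the threshold and Samhd1 was higher at p of at most 0.05. SAMHD1 hydrolyses the deoxynucleotides that retroviruses need. Samhd1 stood at 864, 915, 928 and 942 normalized reads with agonistic CD40 mAb and at 518, 747, 727 and 689.5 with isotype control. The treated libraries were tightly grouped above all controls. Samhd1 averaged 912 ± 33.9 (SD, n = 4) under agonistic CD40 mAb against 670.4 ± 104 (SD, n = 4) under isotype control, a ratio of 1.36 and a log2 fold change of 0.46 (standard error 0.13, limma p = 0.00548, exact permutation p = 0.0286). Without 5L the ratio was 1.27 with a limma p of 0.00777, and p was at most 0.05 in each of the 8 fits without 1 library.

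Sp110, a nuclear body protein, lay at 95.4, 151, 149.8 and 152 and at 31.8, 76.1, 106 and 105 normalized reads. In 3 of the treated libraries the values were nearly equal and above all controls, whereas 5N lay below 8N and 9L. Its means were 137 ± 27.8 (SD, n = 4) under agonistic CD40 mAb against 79.7 ± 34.8 (SD, n = 4) under isotype control, with a ratio of 1.72 and a log2 fold change of 0.89 (standard error 0.36, limma p = 0.0307, exact permutation p = 0.0857). Without 5L the ratio was 1.43, and without 6L, 6R or 10N limma's p was 0.0683, 0.0688 and 0.0680, so 1 library decided the call in 4 of the 8 fits. Near-identical copies share 42.3% of its windows. Its exons also overlap those of G530012D18Rik on the other strand, and the library kit did not keep the strand.

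Ifi203, a DNA-binding protein of the HIN200 family and the most abundant of these genes, stood at 1197, 1402, 924 and 1034 and at 604, 1273, 1094 and 1224 normalized reads. The controls other than 5L lay within the treated range. The ratio was 1.09 with a log2 fold change of 0.16 (standard error 0.23, limma p = 0.503, exact permutation p = 0.686), and it was 0.952 without 5L. Its means were 1139 ± 208 (SD, n = 4) under agonistic CD40 mAb against 1049 ± 306 (SD, n = 4) under isotype control. Ddx60, a helicase that assists RNA sensing, had a ratio of 1.69 that missed the limit on p (limma p = 0.0548, exact permutation p = 0.0571), with a p of 0.0539 from edgeR and of 0.0297 from DESeq2; without 5L the log2 fold change was 0.43. The ratios of Sp100, Phf11d, Ifi204, Adar (the RNA editing enzyme ADAR1) and Isg20 (an exonuclease) were between 1.07 and 1.30 with limma p between 0.095 and 0.607.

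IRF7, a transcription factor that amplifies the production of type I IFN, led the regulators. Irf7 stood at 277, 732, 452 and 454 normalized reads with agonistic CD40 mAb and at 183, 195, 399 and 336 with isotype control. The groups overlapped, since 5N lay below 8N and 9L, and 6L was far above every other library. Irf7 averaged 479 ± 188 (SD, n = 4) under agonistic CD40 mAb against 278 ± 106 (SD, n = 4) under isotype control, a ratio of 1.72 and a log2 fold change of 0.78 (standard error 0.32, limma p = 0.0327, exact permutation p = 0.143). The call was lost without 6L, 6R, 10N, 5L or 7N, where limma's p was 0.104, 0.0592, 0.0574, 0.0736 and 0.0914, and without 6L the ratio also fell to 1.42. The gene, on chromosome 7 from 141262706 to 141266481, overlaps exons of Phrf1 on the other strand, and the library kit did not keep the strand. Such an overlap was found for 6 of the 42 genes, with Irf7 and Sp110 among those past the threshold.

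Nmi, an adaptor that binds STAT proteins, lay at 209, 213, 231 and 221 and at 144, 155, 197 and 199 normalized reads. The groups did not overlap but came close, with 8N and 9L just below 5N. Its means were 219 ± 9.75 (SD, n = 4) under agonistic CD40 mAb against 174 ± 28.4 (SD, n = 4) under isotype control, with a ratio of 1.26 and a log2 fold change of 0.34 (standard error 0.15, limma p = 0.0473, exact permutation p = 0.0286). Limma's p rose to between 0.0622 and 0.116 without 5N, 6L, 6R, 10N, 5L or 7N, with the highest p without 5L. Ifi35, its binding partner, Xaf1 and Epsti1 had ratios of 1.14, 1.36 and 1.38 with limma p of 0.412, 0.123 and 0.295.

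Among membrane and secreted proteins, Lgals3bp, a secreted galectin-binding glycoprotein, was both the most abundant in normalized reads and the one of lowest p. It stood at 2392, 3518, 3012 and 3075 with agonistic CD40 mAb and at 1544, 2163, 2758 and 2414 with isotype control. The overlap came from 5N, which lay below 8N and 9L. Lgals3bp averaged 2999 ± 463 (SD, n = 4) under agonistic CD40 mAb against 2220 ± 512 (SD, n = 4) under isotype control, a ratio of 1.35 and a log2 fold change of 0.45 (standard error 0.18, limma p = 0.0329, exact permutation p = 0.0857). Without 6L, 6R, 10N, 5L or 7N limma's p was between 0.0553 and 0.0938, with a ratio of 1.23 without 5L. Bst2, which encodes tetherin, the protein that holds budding virus on the cell surface, had a ratio of 1.34 (limma p = 0.0988, exact permutation p = 0.171). Rtp4, Shisa5 and Plscr1 had ratios of 1.20, 1.10 and 1.07 with limma p of at least 0.245.

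Ifi44, a cytosolic protein that rises with IFN and slows proliferation, lay at 320, 455, 338 and 330.4 and at 137, 193, 304 and 322 normalized reads. The 2 highest controls, 8N and 9L, came just below or among the lower treated libraries, 6L was highest, and 5L was less than any other. Its means were 361 ± 63.3 (SD, n = 4) under agonistic CD40 mAb against 239 ± 88.8 (SD, n = 4) under isotype control, with a ratio of 1.51 and a log2 fold change of 0.66 (standard error 0.26, limma p = 0.0272, exact permutation p = 0.0571). The call was lost without 6L, 5L or 7N, where the ratio was 1.38, 1.32 and 1.42 and limma's p was 0.0804, 0.0566 and 0.0666. Ifi27, a mitochondrial and nuclear envelope protein widely used as a type I IFN marker, stood at 723, 843, 860.4 and 734 and at 599, 680.4, 794 and 953 normalized reads, with 9L the highest of all 8 libraries. Its means were 790 ± 71.5 (SD, n = 4) under agonistic CD40 mAb against 756 ± 153 (SD, n = 4) under isotype control, with a ratio of 1.04 and a log2 fold change of 0.08 (standard error 0.15, limma p = 0.608, exact permutation p = 0.714), 95% interval -0.25 to 0.41.

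Per kilobase of exon, the levels of the antiviral genes spanned 3 orders of magnitude in the sorted cells. Ifitm3 was highest, at 4465 normalized reads per kilobase in the treated group and 3732 in the controls, followed by Ifitm2 (1915 and 1782), Bst2 (1130 and 843), Lgals3bp (1053 and 780) and Ifi27 (538.5 and 516). These 5 most abundant genes had ratios of 1.04 to 1.35, and 0 of them were past the threshold. At the low end were Oas3 (3.55 and 1.88), Epsti1 (5.47 and 3.97), Mx1 (6.18 and 3.38) and Ddx60 (9.81 and 5.81). The 7 genes past the threshold lay in between, from 17.0 per kilobase for Oas1g to 127 for Irf7 with agonistic CD40 mAb. Exon lengths are the union of all annotated transcripts, and shared sequence affects Ifitm2.

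**Figure D3:**
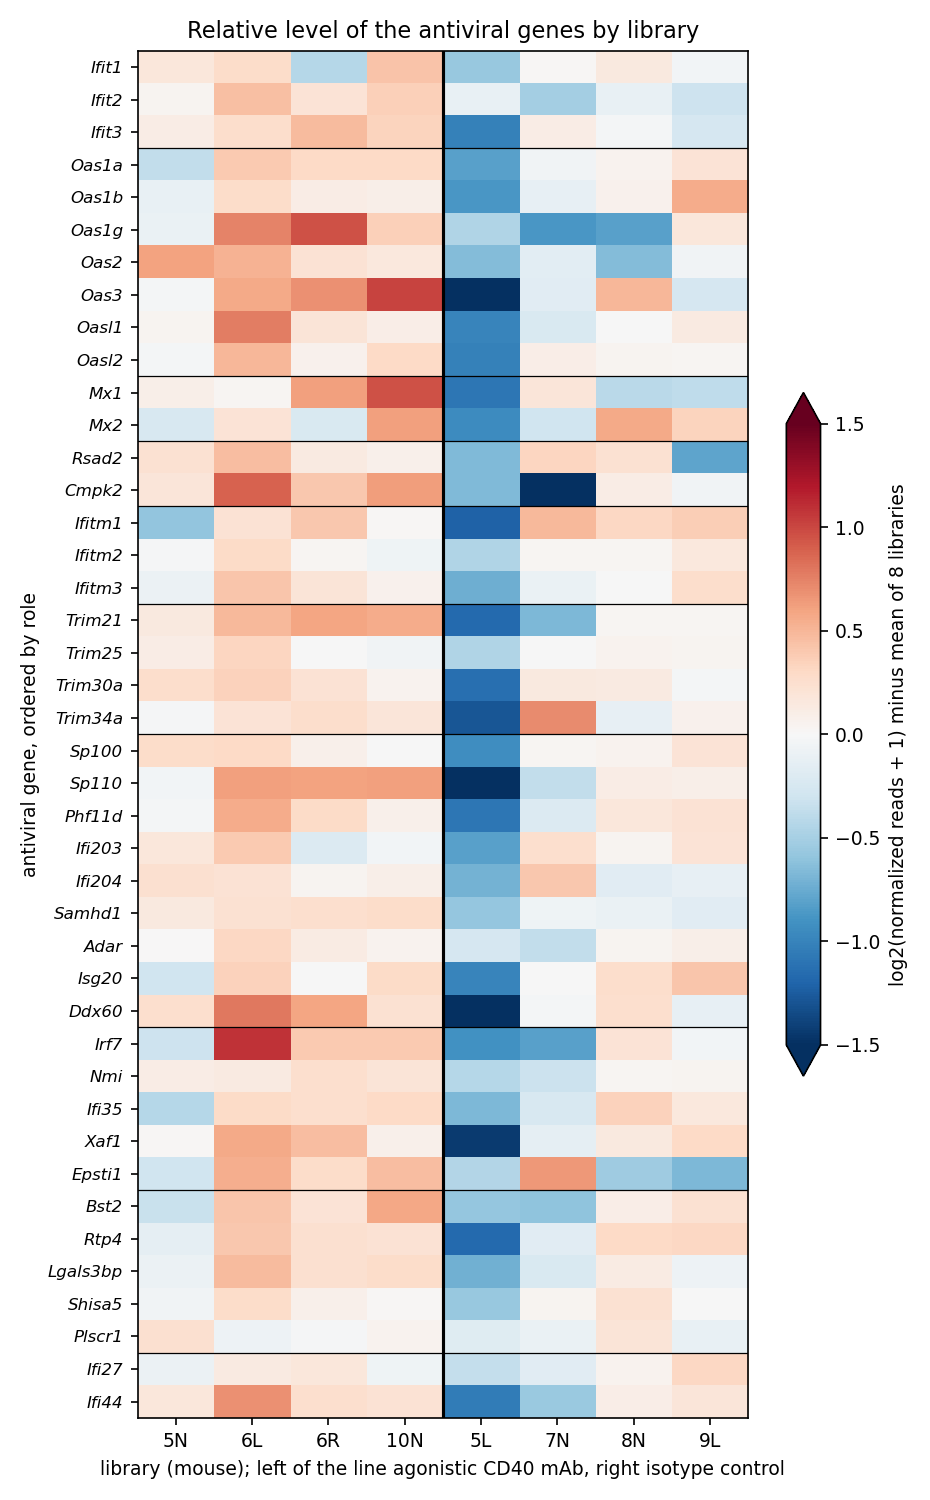
Level of each antiviral gene (rows, by role) in each library (columns), as log2(normalized reads + 1) minus its mean over the 8 libraries, blue low and red high. The 5L column is blue for nearly all genes, the 6L column holds most of the strongest reds, and 5N is the palest of the treated libraries.

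The 8 libraries differed among themselves in these genes, beyond the treatment groups. The median over the 42 genes, relative to the mean of the 8 libraries on the log2 scale, was -0.81 in 5L, -0.11 in 7N, 0.06 in 8N and 0.05 in 9L, and -0.01 in 5N, 0.39 in 6L, 0.23 in 6R and 0.22 in 10N. On this median 5N lay below 8N and 9L, so the groups overlapped. In the isotype group 5L was the lowest library for 35 of the 42 genes, against 39.1% of all genes tested. In the agonistic CD40 mAb group 5N was the lowest for 30 of the 42 (31.3% of all genes) and 6L the highest for 24 (30.9%). The part of depth, and of the melanoma and endothelial marker levels given above for 5L, in its low values was not tested. With the reads of each library thinned to the depth of 5L, 8 of the 42 were past the threshold (median of 5 draws).

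Genes that carry the type I IFN signal were examined as context. The receptor genes were close to equal, with ratios of 0.95 for Ifnar1 (limma p = 0.508, exact permutation p = 0.4) and 1.12 for Ifnar2 (limma p = 0.265, exact permutation p = 0.314), and Jak1 and Tyk2 had ratios of 1.01 and 1.01. Of the 14 genes in this list, 3 were past the threshold, 6 were higher at p of at most 0.05 and the median log2 fold change was 0.39. Without 5L, 1 (Irf1) was past the threshold, 4 were higher at p of at most 0.05 and the median was 0.18.

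Herc6, a ubiquitin ligase of the HERC family, had the lowest p of the list, at 342, 320.2, 322 and 335 normalized reads with agonistic CD40 mAb and 237, 226, 202 and 242 with isotype control. Its groups were tight and did not overlap. The ratio was 1.46, under the limit of 1.5, with a log2 fold change of 0.54 (standard error 0.12, limma p = 0.00102, exact permutation p = 0.0286).

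Irf1, a factor strongly induced by IFNγ, lay at 784, 941, 1082 and 1330 and at 306, 454, 709 and 613 normalized reads. The groups did not overlap. Its ratio was 1.99 with a log2 fold change of 1.03 (standard error 0.25, limma p = 0.00188, exact permutation p = 0.0286). Stat2 and Irf9, which are specific to the type I and type III IFN complex, had ratios of 1.39 (limma p = 0.0279, exact permutation p = 0.0571) and 1.19 (limma p = 0.163, exact permutation p = 0.286). Usp18, the inhibitor of IFNAR2 signaling, had a ratio of 1.42 (limma p = 0.0385, exact permutation p = 0.0857), and Isg15, the ubiquitin-like modifier, a ratio of 1.15 (limma p = 0.4, exact permutation p = 0.514). The other 2 genes past the threshold were Uba7, the enzyme that activates ISG15, with a ratio of 1.66 (limma p = 0.0161, exact permutation p = 0.0857), and Socs1, a brake on JAK signaling, at 10.5, 19.2, 19.9 and 45.3 and 2.44, 4.76, 13.6 and 12.6 normalized reads (ratio 2.84, limma p = 0.0318, exact permutation p = 0.0857). Without 5L the ratio of Uba7 was 1.43, under the limit of 1.5, and Socs1 was not past the threshold without 6L, 6R, 10N, 5L or 7N, where limma's p was 0.0539 to 0.112. Ube2l6 and Irf3 had ratios of 1.35 (limma p = 0.0688, exact permutation p = 0.0571) and 1.08 (limma p = 0.684, exact permutation p = 0.543). Adjusted p was 0.358 for Herc6, 0.46 for Irf1 and 1 for the other genes named in these sentences on signaling.

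Transcripts of IFN ligands were at or near 0 reads in the sorted cells at this depth. Of the 8 ligand genes in the table, Ifna2, Ifna4, Ifna5, Ifnab and Ifng were at 0 reads in all 8 libraries. Ifnb1 had 7 reads in 5N, the deepest library, and 1 in 6L, Ifnk had 1 read in 7N and in 9L, and Ifne had 2 in 9L. A count of 0 allows up to 3 reads, which is 0.353 normalized reads in 5N and 7.33 in 5L. IFN made by other cells of the tumor was not measured here.

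The differences of the antiviral genes were set beside those of 30 genes led by IFNγ in the same fit: guanylate-binding proteins, immunity-related GTPases, MHC class II and antigen processing genes, Cxcl9, Ido1, Ubd and Cd274. This list was drawn up with earlier results of these data known, so its own count describes it only. All 30 were past the threshold, 26 had groups that did not overlap, and the median log2 fold change was 1.94, from 0.76 to 4.80. Without 1 library 28 to 30 were past the threshold, with 28 without 5L (Gbp9 and Psmb10 lost) and 28 without 6L (the same pair), and 28 with library quality weights (Gbp11 and Psmb10 lost). Without 5L, 26 had groups that did not overlap. The antiviral genes thus had a median of 0.43 with a range of 0.02 to 1.12. Without 5L the medians were 1.59 and 0.17, and without 5L and 7N they were 1.39 and 0.15. Gbp10, a guanylate-binding protein and the gene of lowest p in that list, had a ratio of 11.37 (limma adjusted p = 0.00296), and Iigp1, an immunity-related GTPase and the gene of largest mean over the 8 libraries, a ratio of 3.23. Both lists come from the same 8 libraries, and the difference between them was not tested. The genes of the IFNγ receptor, Ifngr1 and Ifngr2, and Jak2 had ratios of 1.07, 0.96 and 1.08, with 0 of the 3 past the threshold.

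**Figure D4:**
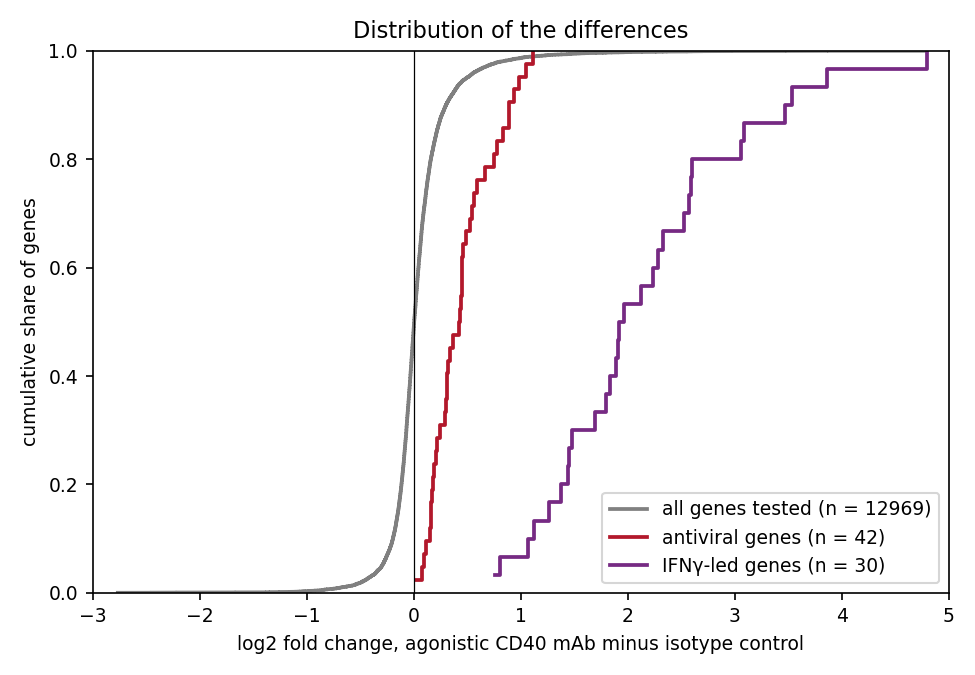
Cumulative share of genes (y axis) against log2 fold change, agonistic CD40 mAb minus isotype control (x axis), for the 42 antiviral genes (red), the 30 IFNγ-led genes (purple) and all 12969 genes tested (gray). The medians, where each curve crosses the middle of the y axis, are 0.43 (red), 1.94 (purple) and 0.005 (gray), and the red curve ends at 1.12.

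The order of the treated libraries was not the same in both lists. For the IFNγ-led genes the highest treated library was 10N in 13, 6R in 11 and 6L in 6 of 30, and 5N in 0, whereas for the antiviral genes it was 6L in 24 of 42, 10N in 8, 6R in 7 and 5N in 3. Library 5N was the lowest treated library for 27 of the 30 and for 30 of the 42. Relative to the mean of the 8 libraries, the median of the IFNγ-led genes was 0.47 in 5N, 0.95 in 6L, 1.31 in 6R and 1.25 in 10N, and -2.18 in 5L, -0.95 in 7N, -0.12 in 8N and -0.48 in 9L. On that median the groups did not overlap. In all genes tested the median lay between -0.055 (5L) and 0.047 (6L).

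**Figure D5:**
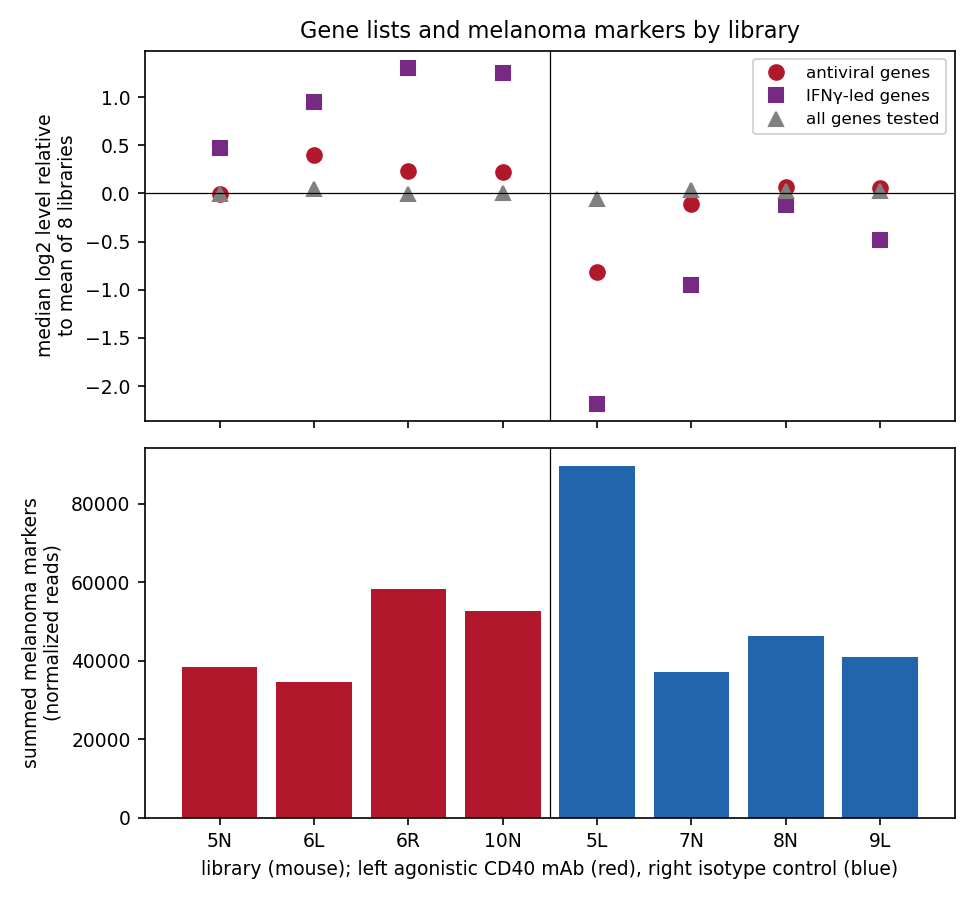
Upper panel, median level of the antiviral genes (red circles), the IFNγ-led genes (purple squares) and all genes tested (gray triangles) in each library, on the log2 scale relative to the mean of 8 libraries; lower panel, summed normalized reads of 6 melanoma markers per library. The antiviral median is lowest in 5L, at -0.81, where the melanoma sum is highest, at 89690.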

How the data were processed

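Libraries were made from 10 ng of RNA per tumor with TruSeq RNA v2 reagents, which do not keep the strand, and sequenced on a HiSeq instrument. The study's methods name TopHat2, mm10, gene assignment in Partek and DESeq2 size factors; the labels also list CASAVA 1.8, Bowtie2 2.2.1 and Partek 6.6. The deposited signal values are 1 DESeq2-normalized value per gene and library. Steps between low values gave the worth of 1 read, and 99.94% of values came within 0.1 read of a whole number, so a correction for harvest day, flooring and trimming named in the methods were not visible. Reads on genes ranged from 2971689 to 64938728 per library, and the isotype group holds the 3 shallowest libraries.

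The 42 genes, the comparison lists and the tests were chosen with earlier results of these data known. The values were tested as log2(value + 1) with limma 3.58.1 in R 4.3.3, with a variance trend, on 12969 genes (larger of the group means above 10), with treatment as the only term. Harvest day is not given per library in the labels, so the fits leave it uncorrected. This replaced the study's analysis of variance because the groups are small; its macrophage libraries were not used here. Fold changes on this scale are differences of mean log2 values, whereas ratios are of mean normalized reads, so they can differ. Adding 1 draws the change of genes with few reads toward 0, but 1 low library can enlarge it. For Oas3 the log2 fold change was 1.12 at a ratio of 1.89. Without 5L it was 0.53 at a ratio of 1.48. Of the 42, full values are given for genes past the threshold, for the gene of lowest p and of largest mean in each role group, and for genes whose groups do not overlap; Ifit3, Oas3 and, of the signaling list, Herc6, Ube2l6 and Irf3 were added after their values were seen. Most genes of the signaling list are given by ratio and p. The IFNγ-led list is given by counts and medians, with ratios for Gbp10 and Iigp1, and the IFNγ receptor genes by ratio only. A gene that meets the rule is not reported here and is left out of the 14 signaling genes. Positions and the percent of shared 50-base windows come from GENCODE M21 (mm10), promoters from RefSeq (GRCm38.p6). Alternatives were pseudocounts of 0.1 and 10, no filter and a limit of 50, quantile and TMM scaling, no trend, library quality weights, edgeR 4.0.16 and DESeq2 1.42.0 on the recovered reads, and leaving out each library. Leaving out 5L and 7N together, and thinning the reads to the shallowest library, were added after seeing the data.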

Additional observations from a re-analysis of the deposited data

Results flagged for a closer look

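In groups of 4 libraries, single values stood apart from the other 3 by Dixon's criterion at the 95% level in 9 of 84 pairs. A pair is an antiviral gene in 1 group. The nominal rate of the criterion is about 1 in 20 for independent groups, but these pairs come from the same 8 libraries. The share over all genes was not computed, so the count is not a trait of the antiviral genes. Library 5L was the low value in Oasl2, at 271 normalized reads with the next at 561, in Ifitm1, at 7.33 with the next at 23.1, and in Trim25, at 738 with the next at 1006. Library 5N was the low value of the agonistic CD40 mAb group in Oas1a, at 162 with the next at 259, in Sp110, at 95.4 with the next at 149.8, and in Ifi35, at 179.5 with the next at 289. Library 6L was the high value in Oasl1, at 110.1 with the next at 73.4, and in Ifi44, at 455 with the next at 338. Library 7N was the high value of the isotype group in Epsti1, at 16.7 with the next at 7.33, which are 7 and 3 reads.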

How the results depend on the processing

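Of the 42 antiviral genes, 7 were past the threshold. The count was 6 to 9 over the alternative pseudocounts, filters, scalings, weights, edgeR and DESeq2, and 8 with thinned reads. It was 4 to 10 without 1 library, lowest without 6L, 6R or 5L, and 1 (Oas2) without 5L and 7N together. The count at p of at most 0.05 was 12, where 1.67% of all genes were higher at this limit. Without 1 library it was 6 to 15, with 6 without 6R, 7 without 6L and 6 without 5L and 7N. The share of all genes at this limit was not computed for the fits that left libraries out. The median log2 fold change was 0.428, 0.217 with library quality weights, 0.168 to 0.505 without 1 library and 0.153 without 5L and 7N. No paired analysis was possible because the replicate numbers only follow the order of the samples and the mouse names share a single number between the groups (5N and 5L). Over all genes the number lower was 31 and moved more than the number higher, 166: it was 123 without 5L and 93 (331 higher) with no filter on low values.

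Fold changes changed sign only in genes that were not past the threshold. For Ifitm1 the log2 fold change was -0.012 with a pseudocount of 10, -0.10 with quantile normalization, -0.16 with library quality weights, -0.14 with edgeR, -0.15 with DESeq2 and -0.22 with thinned reads. With library quality weights it was also -0.007 for Ifit1, -0.022 for Oas1b, -0.28 for Mx2, -0.028 for Ifi203, -0.115 for Isg20, -0.037 for Ifi35, -0.040 for Shisa5, -0.047 for Plscr1 and -0.025 for Ifi27. Without 1 library it ranged from -0.38 to 0.22 for Ifitm1, -0.11 to 0.39 for Mx2, -0.07 to 0.40 for Oas1b, -0.017 to 0.187 for Ifitm2, -0.063 to 0.60 for Trim34a, -0.086 to 0.27 for Ifi203, -0.14 to 0.33 for Isg20, -0.008 to 0.257 for Shisa5 and -0.025 to 0.20 for Ifi27, each lowest without 5L. Without 5L and 7N it was -0.22 for Oas1b, -0.36 for Mx2, -0.33 for Ifitm1, -0.038 for Ifitm2, -0.040 for Ifi203, -0.26 for Isg20, -0.15 for Ifi35, -0.125 for Rtp4 (0.034 to 0.529 without 1 library), -0.033 for Shisa5 and -0.14 for Ifi27. The cause was not tested. In 5L and 7N 1 read was worth over 2 normalized reads, which limits the precision of Mx1, Oas3, Epsti1, Ifitm1 and Oas1g.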
